A study of Mus musculus with 2 samples.

Results

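Gatm, AA467197, Eif3j1 and Eif3j2 were described in glioma-infiltrating immune cells of WT and CD169-DTR mice. They are 4 of the 31053 genes in the deposited matrices, and they were chosen because earlier work on these same libraries had found them shifted between the groups. Their ratios between the libraries are therefore given as a description, with no test.

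GL261, a mouse glioma line, was injected into the brains of C57BL/6 males of 8 to 12 weeks. The WT mice had the genotype CD169-DTR wild type, and the CD169-DTR mice were heterozygous for an allele that puts the diphtheria toxin (DT) receptor in Siglec1, the gene of the macrophage receptor CD169. All mice of both groups received DT 1 day before and 4 days after the tumor. Live CD45.2+ cells of 3 mice were pooled for each group at 10 days post-inoculation and became 1 droplet library of 3′ transcript ends. With 1 library a group there was no replicate, so genotype, pool of mice and library cannot be told apart, and every interval below is a 95% interval for counting error only.

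Barcodes with at least 1000 unique molecular identifiers (UMIs, each 1 captured transcript) and at most 17% mitochondrial UMIs were taken as cells. There were 10107 of them in the WT library (median depth 7776 UMIs) and 7604 in the CD169-DTR library (8099.5). The libraries shared 21 cell barcodes. Clusters were made without the 4 genes and without Siglec1, and the class names stand for cells that resemble that class by its marker genes. Microglia were led by P2ry12 and Gpr34, macrophages by Ms4a7 and Chil3, and dendritic cells (DCs) by Cd209a, Xcr1 or Ccr7, with plasmacytoid DCs (pDCs) kept apart. The sort also held cells with endothelial genes such as Cldn5 and with choroid plexus genes such as Ttr. Microglia made up 51.6% of WT and 78.2% of CD169-DTR immune cells, and macrophages 23.3% and 9.18%, so levels were read within classes or with the class mix held equal.

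Gatm encodes glycine amidinotransferase, the mitochondrial enzyme that moves an amidino group from arginine to glycine and so starts creatine synthesis. AA467197, also known as Nmes1, encodes a small mitochondrial protein related to Ndufa4 of respiratory complex IV, and its transcript hosts the microRNA gene Mir147; both products are known from inflammatory macrophages. Eif3j1 and Eif3j2 are copies of the gene for eIF3j, a loosely bound subunit of translation initiation factor 3, which prepares the small ribosomal subunit for mRNA. A DNA difference that travels with an allele is present in every cell of a mouse, whereas a difference in cell state need not be, so each gene was followed over all classes.

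In the GRCm38 annotation, Gatm lies on the minus strand at chr2:122594467-122611303 with up to 9 exons. AA467197 lies on the plus strand at chr2:122636986-122641191, 25.7 kb away, with no gene of the count matrices between them. Eif3j1 lies at chr2:122028546-122056598 on the plus strand, overlaps Spg11 on the other strand, and has up to 8 exons. Siglec1 lies at chr2:131069220-131086765, which is 8.43 Mb from AA467197, 8.46 Mb from Gatm and 9.01 Mb from Eif3j1. Eif3j2 is a gene of 1 exon at chr18:43475418-43477796, on the minus strand.

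Sequence matters for the Eif3j pair, because a read can be given to either gene only where they differ. The Eif3j2 transcript of 2379 bases matched bases 78 to 2446 of the Eif3j1 transcript of 5413 bases at 99.4% identity. Their coding parts differed by 6 bases that Eif3j2 has and Eif3j1 lacks, with 0 substitutions. The last 91 bases of Eif3j2 were identical to Eif3j1, and the last 300 held 1 difference. Of the windows of 91 bases in Eif3j2, 85.2% also occurred in Eif3j1, against 36.7% of the Eif3j1 windows that occurred in Eif3j2. These shares weigh all positions alike, whereas the library holds 3′ ends. The 3′ part of this Eif3j1 transcript, beyond base 2446, lies outside the match. The study's read length and the treatment of reads that match both genes are not given in the sources used here.

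For the neighbors Gatm and AA467197, whose levels moved in opposite directions, the 100 bases before each RefSeq start (GRCm38.p6) are shown, at chr2:122611278-122611377 for Gatm and chr2:122637787-122637886 for AA467197. These starts differ from the gene ends of the GRCm38 annotation above: the AA467197 stretch lies wholly inside the gene as placed there, and the Gatm stretch overlaps its first bases. A mature microRNA of the AA467197 transcript, mmu-miR-147-5p at chr2:122640814-122640837, follows with its seed (bases 2 to 8) in capitals. No other mature form of Mir147 is shown, and a 3′ library of long transcripts does not count the microRNA.
Gatm upstream: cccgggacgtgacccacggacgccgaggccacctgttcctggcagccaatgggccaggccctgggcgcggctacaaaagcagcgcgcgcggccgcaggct
AA467197 upstream: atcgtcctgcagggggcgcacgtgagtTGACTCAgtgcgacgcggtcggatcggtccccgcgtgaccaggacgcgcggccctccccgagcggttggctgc
mmu-miR-147-5p: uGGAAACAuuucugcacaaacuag
The capitals upstream of AA467197 mark the AP-1 motif (TGANTCA), the only match there among 6 motifs searched on both strands over 250 bases before each start. It occurs in 6.75% of 32851 such windows. The other motifs were CRE (TGACGTCA), SP1 (GGGCGG), the TATA box (TATAAA), GAS (TTCNNNGAA) and the core of the interferon-stimulated response element, and Gatm had a match to none of the 6.

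Levels below are UMI counts scaled to 1000000 UMIs of a class (CPM). Siglec1, which checks the labels, stood at 39.1 CPM in macrophages of WT against 12.7 CPM in those of CD169-DTR. In microglia it had 19.1 and 5.61 CPM. The CD169-DTR library was lower in both classes, which is the direction of its label.

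Over immune cells with equal class mix, Gatm and Eif3j2 were higher in the CD169-DTR library, AA467197 was lower, and Eif3j1 was slightly lower. Gatm had 174 CPM in WT and 528 CPM in CD169-DTR, a log2 ratio of 1.60 (1.57 to 1.63) for CD169-DTR over WT. The level of AA467197 was 153 CPM in WT and 45.4 CPM in CD169-DTR, and its log2 ratio −1.76 (−1.82 to −1.69). Eif3j1 had 45.4 CPM in WT and 33.0 CPM in CD169-DTR (−0.46, −0.54 to −0.38). Eif3j2 had 1.28 against 14.4 CPM, an 11.3-fold difference (log2 3.49, 3.19 to 3.79). Of 12687 genes with at least 100 UMIs, 0.386% were at least 2-fold higher and 0.741% at least 2-fold lower in CD169-DTR. Gatm, Eif3j2 and AA467197 passed these limits and Eif3j1 did not, but the same contrast had chosen the genes. The median over all genes was 0.04 on the log2 scale. Without the barcodes found in both libraries, an alternative chosen after seeing the data, the log2 ratios were 1.60 for Gatm, −1.76 for AA467197, −0.46 for Eif3j1 and 3.49 for Eif3j2.

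**Figure D1:**
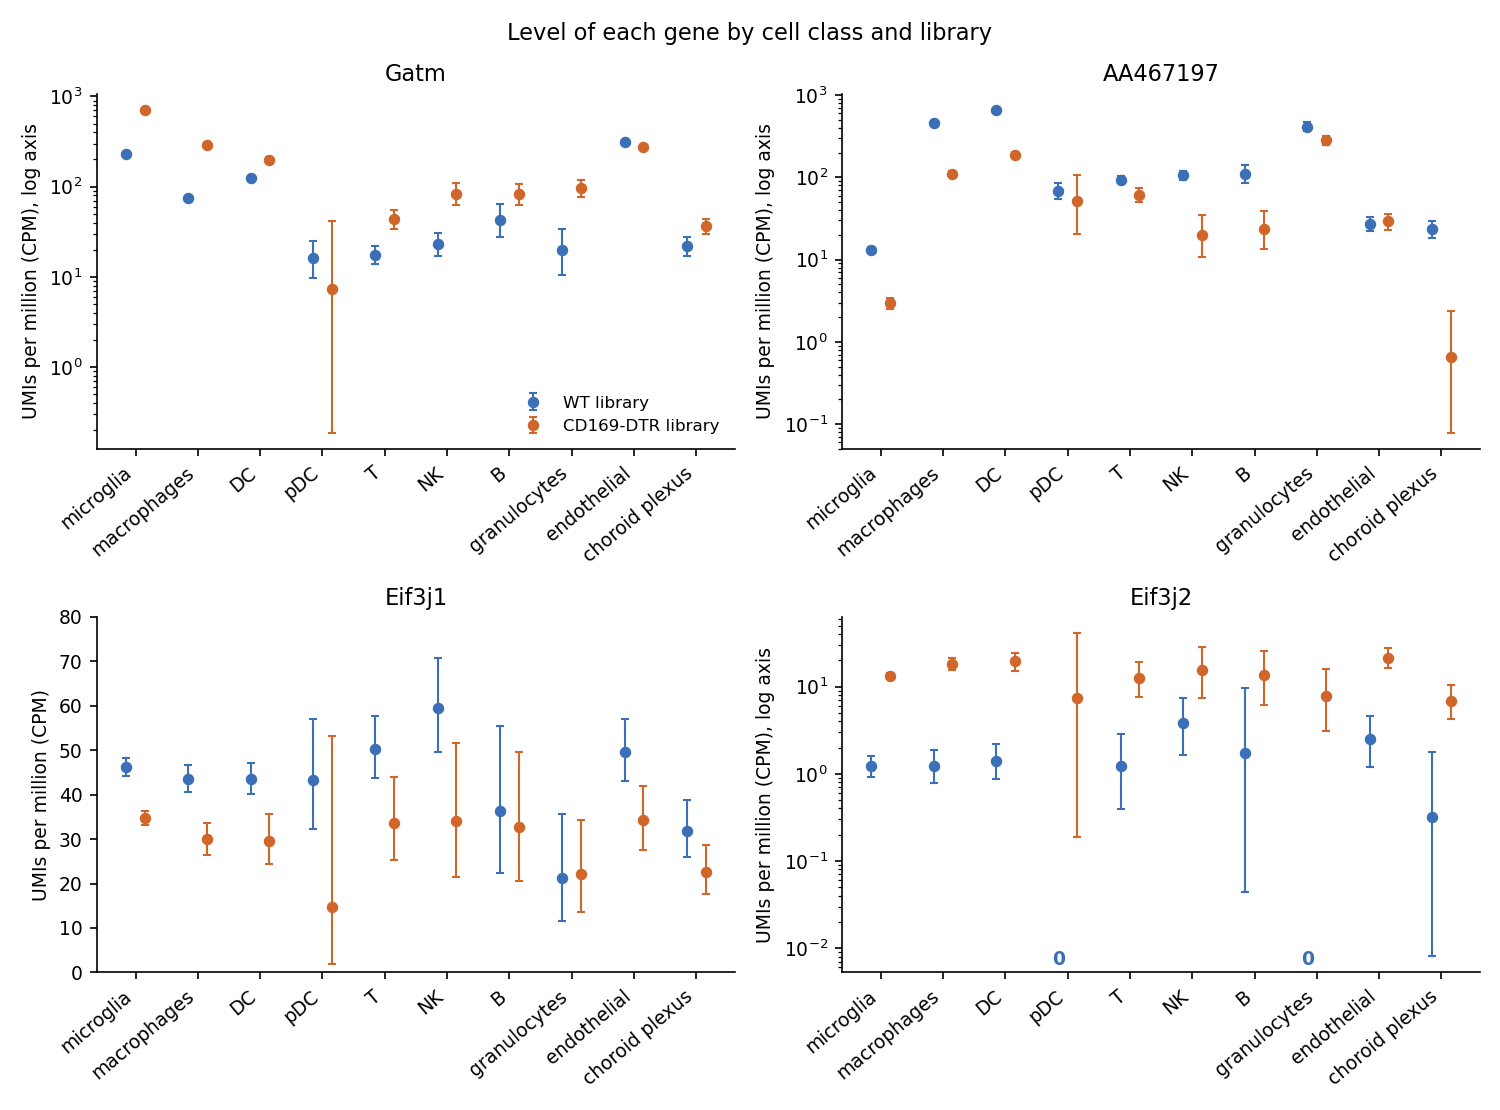
Level of each gene in CPM (log axis, except for the linear axis of Eif3j1) in 10 cell classes of the WT and the CD169-DTR library, with exact Poisson intervals for counting error; a 0 marks a class with no UMI. Gatm stood at 230 CPM in WT and 707 CPM in CD169-DTR microglia, and Eif3j2 had a higher CPM in CD169-DTR in all 10 classes, on 0 and 1 UMIs in pDCs.

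Gatm was highest in endothelial cells of WT and in microglia of CD169-DTR. WT endothelial cells had 313 CPM, microglia 230, DCs 125 and macrophages 74.8 CPM, with no overlap of neighboring intervals in that order. In CD169-DTR the order was microglia with 707 CPM, macrophages with 286, endothelial cells with 272 and DCs with 197 CPM, and the intervals of macrophages and endothelial cells overlapped. The remaining classes ranged from 16.1 to 43.1 CPM in the WT library and from 7.37 to 95.5 CPM in the other, and the WT intervals of neighbors in this lower range overlapped.

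The Gatm ratio was not the same in every class. The log2 ratio was 1.62 (1.59 to 1.65) in microglia, 1.93 (1.84 to 2.03) in macrophages and 0.65 (0.53 to 0.78) in DCs. In endothelial cells, where WT had 1240 UMIs and CD169-DTR 739, it was −0.20 (−0.33 to −0.07). Gatm was thus slightly lower in the class with the highest WT level, and 3.08-fold higher in microglia and 3.82-fold higher in macrophages. Of the 9 classes with at least 30 Gatm UMIs, the interval lay above 0 in 8 and below 0 in 1, and in 4 it held the ratio of the other classes combined. The 8 include T cells, from which no direction is read, and B and choroid plexus cells, whose direction turned under alternatives given next. Some of these classes had few Gatm UMIs. T cells had 72 in WT and 70 in CD169-DTR, and granulocytes 13 and 86.

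Free RNA, taken from 57885 WT and 68338 CD169-DTR barcodes of 10 to 100 UMIs, held Gatm at 139 and 515 CPM. Scaled by the microglial markers found in lymphocytes, it would give 0.216 Gatm UMIs per WT cell and 0.412 per CD169-DTR cell. T cells had 0.152 and 0.321 UMIs per cell, below that level in both libraries, so nothing is read from their log2 ratio of 1.31. Without the 8% of cells with the highest doublet score, T cells kept 12 and 14 of their Gatm UMIs, and the part of free RNA and of doublets in the ratio was not tested. NK cells and granulocytes were above it only in CD169-DTR, with 0.628 and 0.443 UMIs per cell. B cells lay above it in both, but their log2 ratio of 0.93 turned to −1.47 once free RNA was subtracted and to −1.95 without the cells of highest doublet score. That of choroid plexus cells, 0.73, turned to −0.74 without those cells and to −0.57 with equal weight per cell. Microglia, macrophages, DCs and endothelial cells had 0.613 to 3.52 UMIs per cell in WT and 3.00 to 6.78 in CD169-DTR, all above the free-RNA level.

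The share of cells with a Gatm UMI gave the same picture at a common depth of 3000 UMIs per cell. In microglia it was 41.3% of 4567 WT cells and 81.1% of 5232 CD169-DTR cells, and without thinning 66.7% and 94.1%. In macrophages it was 13.5% and 41.0%, and in endothelial cells 55.5% and 53.9%. T cells held a Gatm UMI in 2.81% and 5.34% of cells (overlapping intervals), at median depths of 6517 and 6655 UMIs against 7558 and 7800.5 in microglia. Thinning left out 243 WT and 214 CD169-DTR microglia, 291 and 24 macrophages, 15 and 8 endothelial cells, and 47 and 12 T cells.

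**Figure D2:**
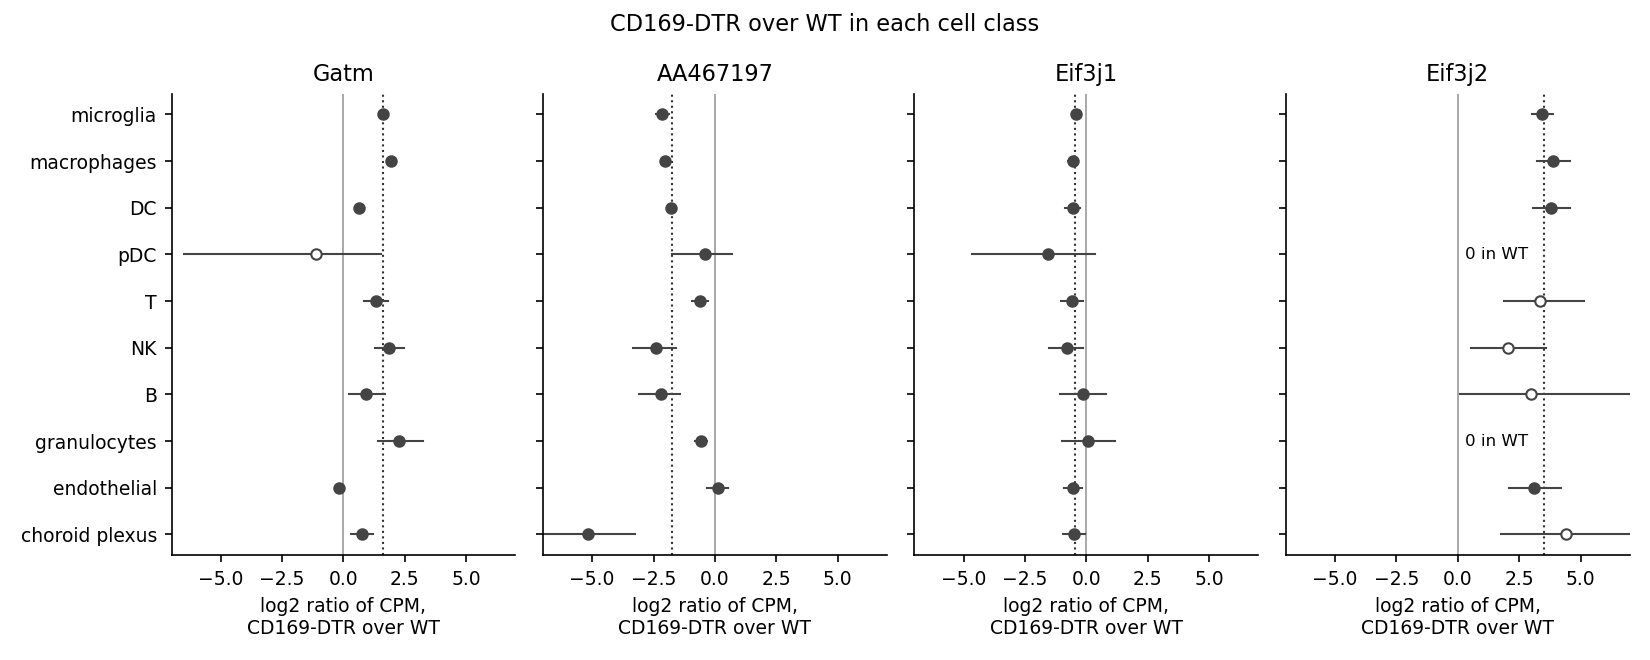
Log2 ratio of CPM, CD169-DTR over WT, for each gene in each class, with exact conditional intervals for counting error (drawn up to 7 on either side). Filled points rest on at least 30 UMIs, open points on fewer, the dotted line is the ratio over immune cells with equal class mix, and "0 in WT" marks a class with no WT UMI. The Eif3j2 points lie to the right of 0 in every class with a ratio, while the endothelial point of Gatm lies at −0.20.

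Microglia were not a single state, so the ratio was also taken in each cluster with at least 50 cells in each library. In all 9 microglial clusters Gatm was higher in CD169-DTR, with log2 ratios of 1.35 to 2.11. The lowest ratio was in cluster 11, led by the DNA replication genes Uhrf1, Hells and Mcm5 (345 and 880 CPM). The highest was in cluster 0, led by P2ry12, Sox4 and Slc2a5 (148 and 639 CPM). In the macrophage cluster led by Gpnmb and Ms4a7 Gatm had 97.6 and 349 CPM, and in the one led by Chil3 and Clec4e 46.4 and 165 CPM, log2 ratios of 1.84 and 1.83. The DC cluster led by Cd209a had 89.6 and 169 CPM, a log2 ratio of 0.91. Within macrophages the ratio was therefore alike in both clusters although the level differed.

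AA467197 was a gene of DCs, macrophages and granulocytes in the WT library. WT DCs had 653 CPM, macrophages 456 and granulocytes 413, and the intervals of the latter pair overlapped. Lymphocytes had 93.5 to 110 CPM and WT microglia, the lowest class, 12.98 CPM. In CD169-DTR, granulocytes came first with 281 CPM, followed by DCs with 188 and macrophages with 111 CPM, with no overlap among their intervals. The order of the myeloid classes therefore differed between the libraries.

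In macrophages the log2 ratio of AA467197 was −2.04 (−2.13 to −1.94), on 8116 UMIs in 2172 WT cells and 1013 UMIs in 639 CD169-DTR cells. In DCs it was −1.79 (−1.91 to −1.68), on 9187 UMIs in 1191 cells and 705 UMIs in 245 cells. In granulocytes the log2 ratio was −0.56 (−0.81 to −0.30), with 272 and 253 UMIs. Granulocytes, the shallowest class with medians of 2924 and 3629 UMIs, were thus 1.47-fold lower, against 4.11-fold in macrophages and 3.46-fold in DCs. The endothelial log2 ratio was 0.11 (−0.33 to 0.54), and 47 of the 79 CD169-DTR UMIs there came from 1 cell. Without the cell with most UMIs in each library it was −0.62. Of the 10 classes, the interval lay below 0 in 8 and above 0 in 0, and in 4 it held the ratio of the other classes. The 8 include T cells, whose direction turned under alternatives, and microglia and choroid plexus cells, whose values lay near or below free RNA in at least 1 library.

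Several small AA467197 values rested on few cells. In T cells the log2 ratio was −0.61, but 63 of the 98 CD169-DTR UMIs came from 1 cell, and it was −1.89 without the top cell of each library. It was 0.83 without the cells of highest doublet score, 0.39 with equal weight per cell and 0.16 with free RNA subtracted. In choroid plexus cells WT had 73 UMIs, 44 of them in 1 cell, and CD169-DTR had 2, a log2 ratio of −5.17 (−8.24 to −3.26). The pDC ratio of −0.40, from 80 and 7 UMIs, became −2.28 without the top cell, 0.43 with free RNA subtracted and 0.05 with equal weight per cell. No direction is given for AA467197 in T cells, pDCs and endothelial cells for these reasons.

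Free RNA held AA467197 at 254 CPM in WT and 27.6 CPM in CD169-DTR, which would give 0.396 and 0.0221 UMIs per cell. WT microglia, with 0.117 UMIs per cell, and WT endothelial cells, with 0.304, lay below that level. A cell cannot hold less than its free RNA, so the level may be set too high for these classes. Nothing is read from the microglial log2 ratio of −2.15, from 561 and 153 UMIs, and the part of free RNA in it was not tested. The ratio was −1.17 without the cells of highest doublet score, which left 273 and 144 UMIs. Macrophages had 3.74 and 1.59 UMIs per cell and DCs 7.71 and 2.88, well above free RNA. Choroid plexus cells had 0.474 in WT, near the free-RNA level, and 0.0116 in CD169-DTR, below it.

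At the common depth, 34.9% of WT and 13.8% of CD169-DTR macrophages held an AA467197 UMI, and 53.5% and 23.9% of DCs. Granulocytes held one in 39.7% of 78 WT and 29.7% of 145 CD169-DTR cells (overlapping intervals), after thinning left out 91 and 49 shallower ones. Microglia held one in 1.95% and 0.573% of cells. Without thinning the macrophage shares were 44.3% and 28.2%, at median depths of 7287 and 12897 UMIs. Both macrophage clusters were lower in CD169-DTR, from 492 to 108 CPM and from 412 to 117 CPM. When the libraries were clustered without integration, 1 macrophage cluster held 1090 WT and 125 CD169-DTR cells. Slfn4, Ly6c2 and AA467197 were among its leading genes. Each of the 2 integrated clusters may thus mix states in unlike shares, and the part of this in the ratios was not tested.

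**Figure D3:**
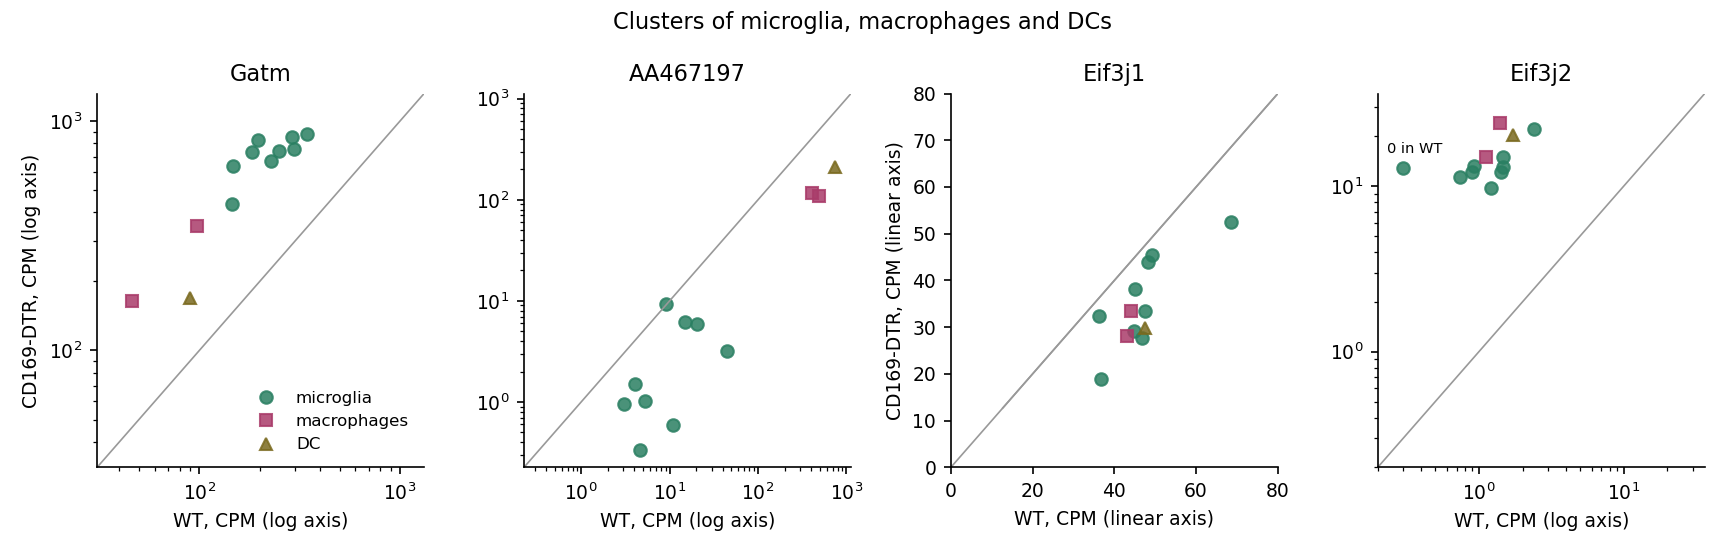
CPM of each gene in the CD169-DTR library against the WT library, for 9 clusters of microglia, 2 of macrophages and 1 of DCs with at least 50 cells in each library; the line marks equal levels, axes are logarithmic except for Eif3j1, and the cluster marked "0 in WT" is drawn at a nominal 0.3 CPM. Gatm and Eif3j2 lie above the line in all 12 clusters, and Eif3j1 below it.

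Eif3j1 was detected in every class of both libraries. WT classes ranged from 21.2 CPM in granulocytes to 59.5 CPM in NK cells, and the interval of each class overlapped that of the next in order. CD169-DTR classes ranged from 14.7 CPM in pDCs, on 2 UMIs, to 34.7 CPM in microglia. The log2 ratio was −0.42 (−0.51 to −0.32) in microglia, −0.54 (−0.75 to −0.34) in macrophages and −0.55 (−0.86 to −0.26) in DCs. It was −0.58 in T cells, −0.54 in endothelial cells and −0.49 in choroid plexus cells. Of the 10 classes, the interval lay below 0 in 7, and in 9 it held the ratio of the other classes. The 3 with an interval across 0 were pDCs (51 and 2 UMIs), B cells (21 and 22) and granulocytes (14 and 20). In clusters the log2 ratio ran from −0.95 to −0.12 among microglia, and was −0.62 and −0.40 in macrophages.

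Eif3j2 was near absent from the WT library and present in every class of the CD169-DTR library. WT microglia had 53 UMIs, each in a cell of its own among 4810, and CD169-DTR microglia had 689 UMIs in 605 of 5446 cells, or 1.23 and 13.2 CPM. Macrophages had 22 and 165 UMIs (1.24 and 18.1 CPM), DCs 20 and 73 (1.42 and 19.5 CPM), and endothelial cells 10 and 58 (2.52 and 21.4 CPM). The log2 ratios were 3.43 (3.02 to 3.86), 3.87 (3.22 to 4.58), 3.78 (3.05 to 4.57) and 3.08 (2.10 to 4.22) in that order. These 4 classes had at least 30 UMIs, their ratios spanned 0.79 on the log2 scale, and each interval held the ratio of the other 3 together. Eif3j1 had this in 9 of 10 classes, Gatm in 4 of 9 and AA467197 in 4 of 10, and a wide interval holds a ratio more easily.

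The classes with fewer Eif3j2 UMIs showed the same direction. T cells had 5 UMIs in WT and 20 in CD169-DTR, NK cells 8 and 10, B cells 1 and 9, and choroid plexus cells 1 and 21. Their log2 ratios spread more widely, from 2.04 (0.55 to 3.58) in NK cells to 4.42 (1.78 to 9.79) in choroid plexus cells. Granulocytes had 0 and 7, at least 1.71-fold higher in CD169-DTR when WT is set at a floor of 3 UMIs. In pDCs there were 0 and 1 UMIs, which gives no ratio. The interval lay above 0 in each of these classes but pDCs. In the 9 microglial clusters the log2 ratio ran from 3.02 to 3.95 in the 8 with a WT UMI, and cluster 16 had 0 WT and 22 CD169-DTR UMIs. Free RNA held 5 and 30 UMIs, or 1.31 and 9.52 CPM, which would give 0.00205 and 0.00761 UMIs per cell. T cells, for comparison, had 0.0105 and 0.0917.

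At the common depth, 0.307% of WT and 3.80% of CD169-DTR microglia held an Eif3j2 UMI, and 0.478% and 5.69% of macrophages. In T cells it was 0.703% and 2.91%, on 3 of 427 and 6 of 206 cells, and these intervals overlapped (0.145 to 2.04 and 1.08 to 6.23). Without thinning the microglial shares were 1.10% and 11.1%. No class that should lack the gene was available for comparison, so these shares are set beside the WT library alone.

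Because most windows of Eif3j2 also occur in Eif3j1, the paralogs were also summed. The summed level of Eif3j1 and Eif3j2 over immune cells with equal class mix was 46.7 CPM in WT and 47.4 CPM in CD169-DTR, a log2 ratio of 0.02 (−0.05 to 0.09). In microglia the sum was 47.5 and 47.9 CPM, in macrophages 44.8 and 48.0, and in endothelial cells 52.2 and 55.6 CPM. In all 10 classes the interval of this ratio held 0, but it was wide where the pair had few UMIs. These were 51 and 3 in pDCs and 14 and 27 in granulocytes. In microglia Eif3j1 fell by 11.6 CPM while Eif3j2 stood 11.96 CPM higher, and in endothelial cells the differences were −15.4 and 18.8 CPM. Other classes were less even, with −25.3 and 11.8 CPM in NK cells and −16.6 and 11.3 CPM in T cells. In pDCs the differences were −28.6 and 7.37 CPM, and in granulocytes 0.96 and 7.77 CPM. In microglia the interval of the sum held 0, whereas the intervals of Eif3j1 and Eif3j2 lay on opposite sides of it.

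Eif3j2 made up 2.78% (2.29 to 3.35) of the pair's 3915 UMIs in WT immune cells and 29.6% (28.0 to 31.2) of 3291 in CD169-DTR. Among the 7 classes with at least 100 UMIs of the pair over both libraries, the share ran from 0.990% to 5.97% for WT and from 23.1% to 39.7% for CD169-DTR. The intervals of the libraries did not overlap in 7 of the 10 classes. Within CD169-DTR the share was not quite equal, with 27.5% (25.8 to 29.3) in microglia, 37.7% (33.1 to 42.4) in macrophages and 39.7% (32.6 to 47.1) in DCs. Free RNA had 2.76% and 24.6%. These are shares of UMIs of 3′ ends, and whether reads common to both genes were counted, and for which gene, was not tested.

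**Figure D4:**
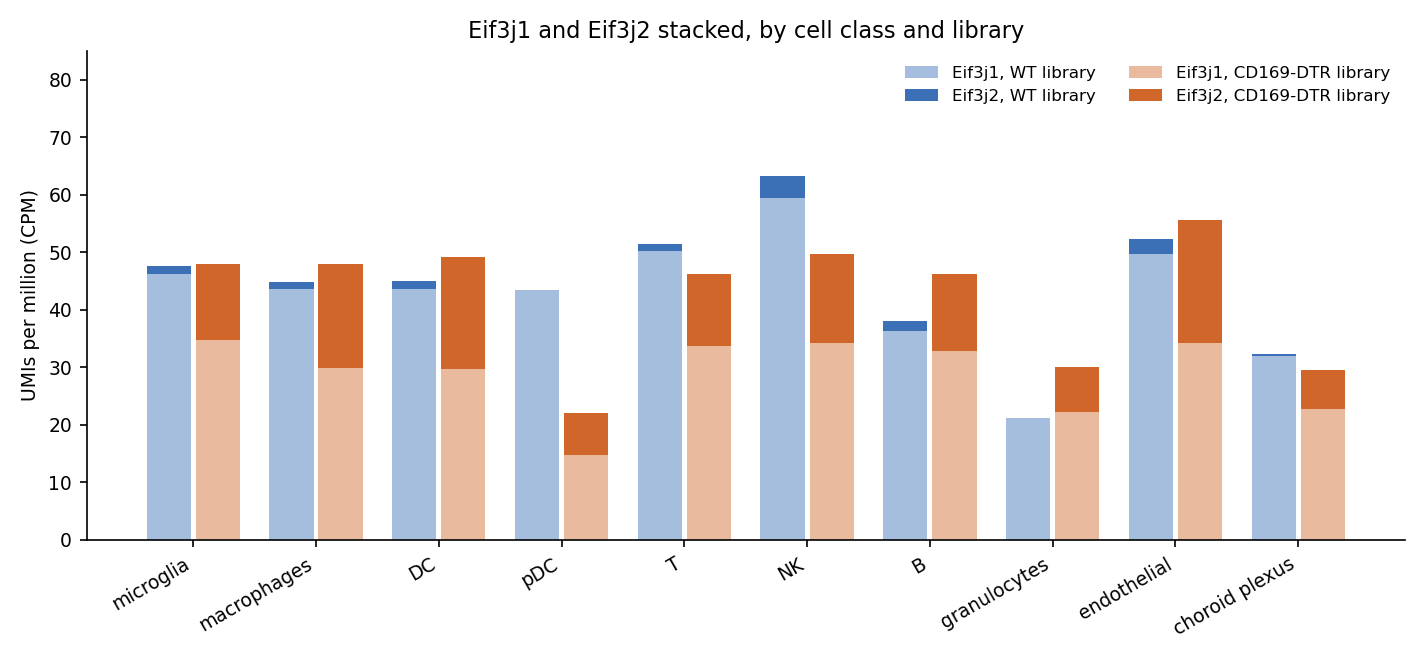
Stacked bars of Eif3j1 (pale) and Eif3j2 (dark) in CPM, by cell class and library. In microglia the stacks reach 47.5 CPM in WT and 47.9 CPM in CD169-DTR, and the dark part is 1.23 and 13.2 CPM.

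Clusters that matched no class were examined as well. Cluster 27 held 10 WT and 13 CD169-DTR cells, their median depth was 60259 UMIs, and it was led by Serpina3n, Col9a2 and Syt4. By marker lists cluster 27 came closest to oligodendrocytes and then to glioma, but no marker of these lists was among its leading genes. Cluster 27 had 2 Eif3j2 UMIs in each library, and both CD169-DTR UMIs came from 1 cell. Eif3j2 thus made up 5.56% (0.680 to 18.7) of the pair in WT and 3.92% (0.478 to 13.5) in CD169-DTR, on 36 and 51 UMIs of the pair. The CD169-DTR interval lay below that of CD169-DTR microglia, macrophages, DCs and endothelial cells. In the other 6 unnamed clusters the CD169-DTR share ran from 18.2% (6.98 to 35.5) to 57.1% (28.9 to 82.3), on 33 and 14 UMIs of the pair. The WT share there was 0% to 7.14% (0.181 to 33.9), the last on 14 UMIs. The interval around 18.2% overlapped the CD169-DTR interval of cluster 27. Gatm in cluster 27 had 206 and 374 CPM, a log2 ratio of 0.86 (0.55 to 1.18).

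The whole table was then searched for genes that moved in every class. The 7 classes with at least 100 cells in each library were microglia, macrophages, DCs, T cells, granulocytes, endothelial cells and choroid plexus cells. Of 4063 genes with at least 30 UMIs in each, 0 (0%) were at least 2-fold higher in CD169-DTR in all 7, and 1 (0.0246%) was at least 2-fold lower. That gene was Slfn4, a Schlafen family gene on chromosome 11, with log2 ratios of −1.12 to −4.15. Gatm, AA467197 and Eif3j1 were among the 4063 and did not pass. Gatm was at least 2-fold higher in 4 of the 7 (microglia, macrophages, T cells and granulocytes), and AA467197 at least 2-fold lower in 4 (microglia, macrophages, DCs and choroid plexus cells), although some of these lay below the free-RNA level. For Gatm these were T cells in both libraries and granulocytes in WT (0.0769 UMIs per cell), and for AA467197 microglia in WT and choroid plexus cells in CD169-DTR. Single classes differ in how often any gene with 30 UMIs passes: 1.00% of genes were higher in microglia, 1.38% in macrophages, 2.27% in DCs, 0.885% in T cells, 5.42% in granulocytes, 0.690% in endothelial cells and 3.40% in choroid plexus cells. The shares that were lower were 1.10%, 3.35%, 2.90%, 5.35%, 4.30%, 1.92% and 1.22% in the same order. These contrasts had chosen the genes, and nothing is read from the counts.

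Eif3j2 had too few UMIs for that search, reaching 30 in 4 classes. With a minimum of 5 UMIs in each class, a limit chosen after the counts were seen, 8574 genes could be compared. By CPM alone 1 gene, Eif3j2, was at least 2-fold higher in all 7 classes (0.0117%), and 3 genes were at least 2-fold lower (0.0350%), Slfn4, Ifi205 and Gm36161. In granulocytes the Eif3j2 pass rests on 0 WT UMIs, and the gene met the minimum there through 7 CD169-DTR UMIs alone. The same contrast had chosen Eif3j2, so nothing is read from these counts. With counts of 0 set at the floor of 3 UMIs, Eif3j2 was past 2-fold in 6 of the 7 classes and Gm36161 in 5, while Slfn4 and Ifi205 were past it in all 7. Of the 4063 genes, 3.00% were higher in all 7 classes and 3.37% lower by any amount. Eif3j1 was lower in 6 of the 7 and higher in granulocytes, where the difference was 0.96 CPM.

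No measured neighbor of the chromosome 2 genes passed 2-fold between the libraries, and few would at the share of all genes. Of 44 other annotated genes within 1 Mb of Gatm, AA467197 or Eif3j1, 25 had at least 100 UMIs in immune cells. None of the 25 was 2-fold higher or lower with equal class mix, against 1.13% of all genes. So low a share leaves 0 of 25 near it, and nothing is read from the count. The median log2 ratio of the 25 was 0.01. They ranged from −0.34 for Wdr76 to 0.95 for Duoxa1, on 66 and 146 UMIs. Among direct neighbors in the matrices, Slc30a4, a zinc transporter gene next to AA467197, had a log2 ratio of 0.35 and Ctdspl2, next to Eif3j1, −0.26. Spg11, which overlaps Eif3j1 on the other strand, had −0.23, and whether counting used the strand is not given in the sources used here. The genes Gm14085 and Patl2, on the far sides of Gatm and Eif3j1, had too few UMIs. B2m, the gene of the MHC class I light chain, had 5769 and 5015 CPM, or −0.20.

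**Figure D5:**
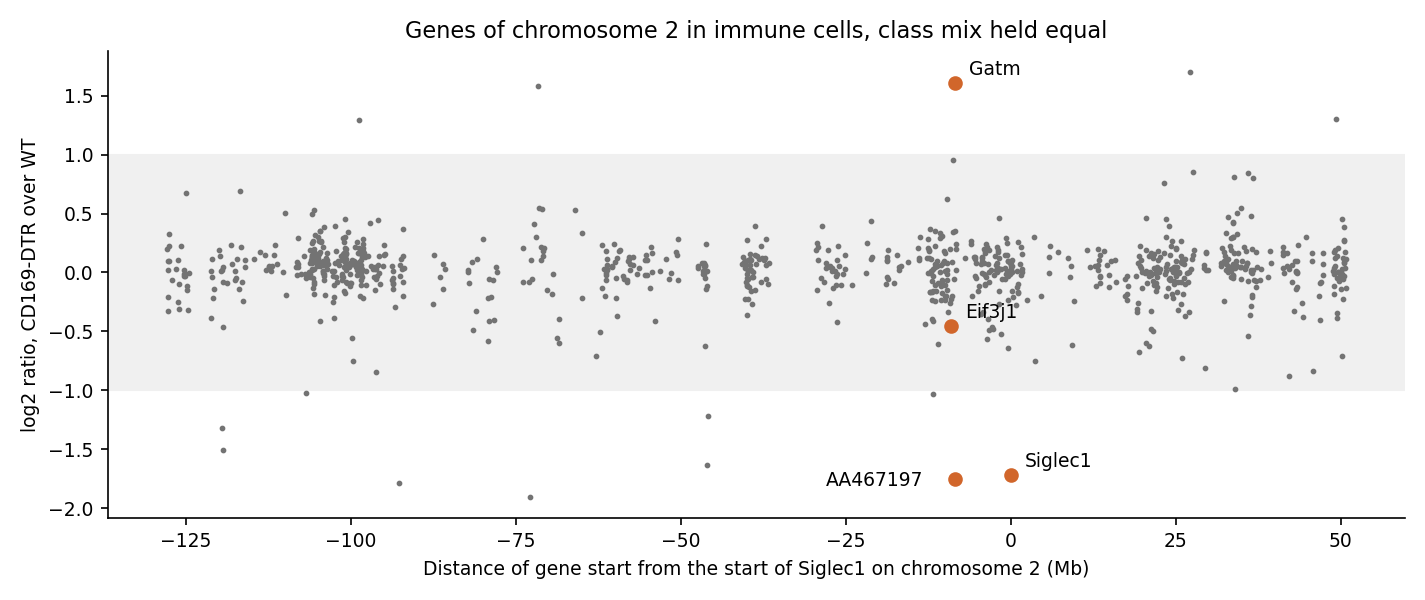
Log2 ratio of CD169-DTR over WT in immune cells with equal class mix, for genes of chromosome 2 with at least 100 UMIs, against the distance of the gene start from that of Siglec1 in Mb. The grey band marks ratios under 2-fold; Gatm (1.60), AA467197 (−1.76) and Siglec1 (−1.72) lie outside it and Eif3j1 (−0.46) inside.

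Within 10 Mb on the low side of Siglec1, where the 3 genes lie, 99 other genes were measured, with a median log2 ratio of 0.02. Of these, 0 were past 2-fold, against 1.13% of all genes, and nothing is read from the count. Over chromosome 2 as a whole, 4 of 975 genes other than these and Siglec1 were at least 2-fold higher and 8 lower, which is 1.23%. Single chromosomes ran from 0.576% to 2.00%, with chromosome 2 inside that range.

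Among the pathway partners of these genes, 1 passed 2-fold, in macrophages. In the creatine list, 4 of 6 genes other than Gatm had at least 100 UMIs in microglia and 3 of 6 in macrophages, and 0 were past 2-fold in either. Across all genes with that many UMIs, 0.869% were past 2-fold in microglia and 2.97% in macrophages. Counts of 0 or 1 in lists this short cannot be told from those shares, so nothing is read from them here or below. Ckb, the creatine kinase of brain, had 662 CPM in WT and 750 CPM in CD169-DTR microglia, a log2 ratio of 0.18. Gamt, which turns the product of Gatm into creatine, had 11.7 and 13.1 CPM (0.16). The list medians were 0.11 in microglia and 0.27 in macrophages, beside 0.04 and 0.03 over all genes.

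Arginine, the substrate of Gatm, is also used by arginases and nitric oxide synthase. Of 10 genes of arginine and ornithine metabolism, 6 were measured in microglia, with 0 past 2-fold against 0.869% of all genes. In macrophages, where 2.97% of all genes were past 2-fold, 8 were measured and 1 was lower. That gene was Ass1, argininosuccinate synthase, at 276 CPM in WT and 132 CPM in CD169-DTR macrophages, or −1.07 (−1.16 to −0.98) as a log2 ratio. Arg1, the cytosolic arginase, had 119 and 140 CPM there, a log2 ratio of 0.23. In microglia Odc1, ornithine decarboxylase, had 85.5 and 114 CPM (0.41), and Oat, ornithine aminotransferase, 36.6 and 42.4 CPM (0.21). The medians were 0.18 in microglia and 0.08 in macrophages.

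None of the other eIF3 subunits passed 2-fold, beside 0.869% of all genes in microglia and 2.97% in macrophages. All 12 were measured in microglia and in macrophages, with medians of 0.03 in microglia and 0.21 in macrophages. Eif3f had 223 and 239 CPM in microglia (0.10), and Eif3h 182 and 191 CPM (0.07). In macrophages 12 of the 12 had log2 ratios above 0, against 53.4% of all genes measured there, and in microglia 7 of 12 did, against 62.8%.

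Of 13 complex IV genes and Ndufa4 relatives other than AA467197, 12 were measured in each class. None was past 2-fold, beside 0.869% of all genes in microglia and 2.97% in macrophages. The medians were −0.03 and 0.07. Cox4i1 had 682 and 663 CPM in microglia and Cox8a 477 and 474 CPM. Ndufa4 itself, chosen after its values were seen as the relative of AA467197, had 199 and 249 CPM in macrophages, a log2 ratio of 0.33. Its direction there was opposite to that of AA467197. Of the 12 genes measured in macrophages, 10 had log2 ratios above 0 and 2 below, against 53.4% of all genes above 0. In microglia Ndufa4 had 261 and 253 CPM, a log2 ratio of −0.04 (−0.08 to −0.008).

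Likeness of pattern was measured as Pearson's r of log2(CPM + 1) over 20 points, 10 classes in each of 2 libraries, among 10974 genes, and is a description because the points share libraries. Most like Gatm were Anxa3 (0.88), B430010I23Rik, Nrp2, Htra3 and Adam15. Most like AA467197 were Isg20 (0.86), Haus8, Ifitm6, Vav3 and S100a6. Eif3j1 was most like Pold3 (0.88), Samd1, Mtbp, Thap2 and Lcmt2, the last a gene of the same stretch of chromosome 2. For Eif3j2 the closest was Ssh3 with 0.63, followed by Cdk5rap1, Eif2ak1, Zfp87 and Klf16. That r is lower than for the other genes, but many Eif3j2 points rest on few UMIs, such as 0 in WT granulocytes and 1 in WT B cells. The part of counting error in it was not tested.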

How the data were processed

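The authors deposited raw droplet matrices of UMI counts for both libraries, made with Cell Ranger and mm10 per the submitters' notes, whose versions are not given in the sources used here. Of the 31053 gene identifiers, 30934 matched GENCODE M21 (GRCm38), which gave positions and transcripts. Sequences upstream of genes and the microRNA came from RefSeq. The genes, lists and tests were chosen with earlier results of these data known.

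Cells were barcodes of 1000 UMIs or more with a mitochondrial share of 17% or less, and no doublets were removed. Seurat 5.3.0 integrated the libraries (2000 features without the 4 genes and Siglec1, 50 dimensions, 30 for clustering, resolution 1). Clusters were named from marker lists; 7 clusters stayed unnamed.

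Counts were summed per library and class and given as CPM with exact Poisson intervals. Ratios had exact conditional intervals, shares exact Clopper-Pearson intervals, and ratios with equal class mix (8 immune classes, weighted by their mean share) delta-method intervals. With 1 library a group, there was no test. Scripts were tested on simulated data. Doublet scores came from Scrublet in scanpy 1.11.5. Members were named in every class; other names followed size rules (direct neighbors, genes past 2-fold, the 2 highest expressed of a list, the 5 most alike), except B2m, Wdr76, Duoxa1 and Ndufa4, which were chosen after their values were seen.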

Additional observations from a re-analysis of the deposited data

Results flagged for a closer look

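Gatm had a log2 ratio of −0.20 for CD169-DTR over WT in endothelial cells, while it was above 0 in microglia, macrophages and DCs. The opposite direction was the reason to list it, and the difference between classes was not tested.

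Near-empty barcodes, which enter none of the comparisons between cell classes, held Gatm at 515 CPM in CD169-DTR against 139 CPM in WT. They held Eif3j2 at 9.52 CPM in CD169-DTR against 1.31 CPM in WT, on 30 and 5 UMIs. Both differ in the same direction as the microglia of these libraries. Their part in the class values was not tested beyond the subtraction of free RNA.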

How the results depend on the processing

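No paired analysis was possible because each group holds 1 library, and no result comes from a test. The log2 ratio of Gatm over immune cells, 1.60, was 1.55 with free RNA subtracted, 1.64 with equal weight per cell, 1.56 with median-ratio scaling, 1.90 as a plain sum over immune cells and 1.54 without clusters 0 and 4 (the last chosen after seeing the data). That of AA467197, −1.76, was −1.87 without the cell with most UMIs and −2.79 as a plain sum. Of genes at least 2-fold lower in all main classes there was 1, against 9 at 1.5-fold, 0 at a minimum of 60 UMIs and 3 at a minimum of 5 UMIs, where 1 gene was higher by CPM, with 0 WT UMIs in granulocytes. Within 5 Mb of the chromosome 2 genes, 1 of 110 genes was past 2-fold (0.909%), against 1.13% of all genes. Within classes, alternatives turned the direction in 4 of 104 cases for Gatm, 7 of 106 for AA467197, 5 of 109 for Eif3j1 and 0 of 86 for Eif3j2. The causes were not tested. Depth limits Eif3j2 most, with 109 WT immune UMIs. The amount of free RNA per cell may be set too high for classes that lie below it, and doublets, which also bring microglial UMIs into lymphocytes, were not separated from it.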
